A study of Mus musculus with 12 samples.

Results

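The fibroblast growth factor (FGF) genes described here are 4 ligands, Fgf4, Fgf5, Fgf8 and Fgf15, and the 4 signalling receptors Fgfr1, Fgfr2, Fgfr3 and Fgfr4. They were taken by symbol, as 8 of the 47729 rows of a gene expression table, and were followed in mouse embryonic stem cells as these left the naive state. The cells were of the E14Tg2a line, derived from strain 129/Ola. The deleted line, delta 0.7 in the labels and delta here, lacked 0.7 kb of a regulatory region of Tcf15 on both alleles, and its columns named 1 clone, so that genotype and clone cannot be told apart. WT cells were the unedited E14Tg2a line. Both were grown in N2B27 medium with 2i and LIF (0 h) and were then induced for 12 or 24 h on fibronectin, in N2B27 to which KOSR, Activin and bFGF were added, conditions that turn naive cells into epiblast-like cells (EpiLC). Each of the 6 groups (delta at 0, 12 and 24 h, and WT at 0, 12 and 24 h) held 2 libraries of poly(A) RNA. The labels do not say that the 2 were separate cultures, so p-values measure only the spread between these libraries, which may be technical.

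As background, FGF ligands bind receptor tyrosine kinases together with heparan sulphate, and the activated receptors signal through FRS2, GRB2, RAS and RAF to the kinases MEK and ERK. In naive mouse stem cells the main ligand is FGF4, which the cells make themselves and which drives ERK and exit from the naive state; 2i medium blocks this route with an inhibitor of MEK. Fgf5 is the classical transcript of the epiblast after implantation and a standard mark of EpiLC. The induction medium supplies bFGF, the protein of Fgf2, from outside.

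Fgf4 lies at chr7:144861386-144865245 on the plus strand of GRCm38 (mm10). Its textbook enhancer in stem cells is a joined SOX2 and OCT4 site in the part of its last exon that is not translated. The site is shown because Fgf4 was by far the most abundant member at every time. The pattern, CTTTGTT and ATGCNAAT with any 3 bases between, matched the Fgf4 transcript in exon 3 of 3, starting 1453 bases after the stop codon. The stretch shown, chr7:144864388-144864417 on the plus strand, holds the match with 6 bases on either side. The SOX site and the octamer are in capitals.
Fgf4 element: aaaactCTTTGTTtggATGCTAATgggata
The pattern was found in the transcripts of 2 of 55450 genes (0.00361%).

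The 250 bases before the RefSeq starts of Fgf4 and Fgf5 (GRCm38.p6) are shown because transcripts of both were more abundant at 24 h than at 0 h, Fgf4 from a high and Fgf5 from a near-zero level. Capitals mark GC boxes, GGGCGG on either strand. The first line is chr7:144861136-144861385 and the second is chr5:98253934-98254183, both on the plus strand.
Fgf4 promoter: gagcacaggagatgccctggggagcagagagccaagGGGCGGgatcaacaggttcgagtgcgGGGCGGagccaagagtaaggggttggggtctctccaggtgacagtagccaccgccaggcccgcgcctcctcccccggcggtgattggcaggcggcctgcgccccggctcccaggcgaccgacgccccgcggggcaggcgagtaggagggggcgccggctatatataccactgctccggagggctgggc
Fgf5 promoter: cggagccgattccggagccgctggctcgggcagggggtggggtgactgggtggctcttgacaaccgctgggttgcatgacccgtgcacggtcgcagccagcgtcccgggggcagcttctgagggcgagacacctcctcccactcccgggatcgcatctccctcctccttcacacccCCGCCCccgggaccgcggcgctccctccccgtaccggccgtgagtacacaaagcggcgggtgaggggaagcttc
The Fgf4 stretch was 71.2% G or C with 21 CG pairs and 2 GC boxes, and the Fgf5 stretch was 70.8% G or C with 24 CG pairs and 1 GC box. Medians over 32851 promoters of that length were 52.4% and 6 CG pairs, and 32.7% of them held a GC box. On both strands neither stretch held the octamer ATGCNAAT, which 2.86% of all these promoters held. The same was true of the TCF/LEF motif CTTTGAA, present in 4.46% of promoters, and of the SOX motif CATTGT, present in 10.7%. The TATA box, searched only as TATAAA and present so in 12.4% of promoters, was also not matched, but the Fgf4 stretch holds the run tatatata near its end, which that spelling does not cover. Among the receptors the stretch was 44.0% G or C for Fgfr2, 66.8% and 72.8% for the 2 starts of Fgfr3 and 64.0% for Fgfr4.

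Library depth, recovered from the steps in the deposited values, was 9779389 to 17646543 reads (median 12236606). Levels are FPKM, fragments per kilobase of transcript scaled to library depth, so that genes of unlike length can be set side by side. Tcf15, the targeted gene, had 1.04 to 4.44 FPKM in the delta libraries, against 3.45 to 99.4 FPKM in the WT libraries, and was lower in delta at each time (limma adjusted p of delta against WT 1 at 0 h, 0.047 at 12 h, 0.083 at 24 h and 0.0050 averaged over times). Of 11 formative epiblast markers other than Fgf5, 10 in delta and 9 in WT were called higher at 24 h than at 0 h, and their summed level at 24 h was 885 to 902 FPKM in delta and 711 to 784 FPKM in WT. The summed level of 12 naive markers at 24 h was 429 to 443 FPKM in delta and 614 to 623 FPKM in WT, against at least 1500 FPKM in every 0 h library. At 24 h against 0 h, 10 of these 12 were called lower in delta and 9 in WT, and 1 was called higher in each. For both marker sets, the share called over all genes tested was 15.4% in delta and 10.2% in WT. A summed level of 10 fibroblast markers of 21.7, 49.0 and 43.3 FPKM set 1 WT library apart at each of 0, 12 and 24 h; the other 9 libraries had 1.92 to 7.04 FPKM. The replicate 1 libraries of 0 h also stood apart, with 12.7% (delta) and 10.8% (WT) of reads from ribosomal protein genes, against 5.41% to 7.08% in the other 10. In every group the replicates also differed in mitochondrial reads, with 0.446% to 0.644% in replicate 1 libraries and 1.79% to 2.86% in replicate 2 libraries.

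The test throughout was a limma fit of log2(FPKM + 1) over the 13981 genes that reached 1 FPKM in 2 or more libraries, with p-values adjusted over all of them and a call at an adjusted p under 0.05. Of the 8 members, 5 passed that filter: Fgf4, Fgf5, Fgf15, Fgfr1 and Fgfr4. Fgf8, Fgfr2 and Fgfr3 did not. Fgf5 and Fgf15 passed only through their 24 h libraries and Fgfr4 only through libraries of 12 and 24 h, so that these had to differ between times to be tested at all. In delta cells at 24 h against 0 h, 3 members were called (Fgf4, Fgf5 and Fgf15), where 15.4% of all genes tested were called; in WT cells 2 were called (Fgf5 and Fgf15), where 10.2% of all genes were. At 12 h against 0 h no member was called, with a background of 7.00% in delta and 4.03% in WT. At 24 h against 12 h Fgf5 and Fgf15 were called in both genotypes, with a background of 1.36% in delta and 0.408% in WT. Since several members passed only where they were high, the counts cannot be read against these shares. Changes in bulk RNA cannot tell more or fewer cells that make a transcript from more or less of it in each cell.

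Fgf4, the ligand that naive cells make for themselves, had the highest level of the members in each library. In delta cells replicates 1 and 2 had 65.9 and 91.1 FPKM at 0 h, 119 and 111 FPKM at 12 h and 143 and 144.5 FPKM at 24 h. In WT cells they had 71.05 and 80.7 FPKM at 0 h, 102.5 and 91.3 FPKM at 12 h and 127 and 116 FPKM at 24 h. The times did not overlap in either genotype, 24 h being highest and 0 h lowest. Means at 24 h against 0 h were 144 ± 1.03 and 78.5 ± 17.9 FPKM in delta, a ratio of 1.83, and 122 ± 7.24 and 75.9 ± 6.83 FPKM in WT, a ratio of 1.60 (SD, n = 2 each). On the log2 scale Fgf4 rose by 0.88 in delta (SE 0.20, limma adjusted p = 0.017). The WT difference of 0.67 (SE 0.20) did not pass (limma adjusted p = 0.063); it passed with the replicate number as a block (adjusted p = 0.048), with median-of-ratios scaling (0.047), with voom on recovered reads (0.047), without delta 0 h replicate 1 or replicate 2 (0.013 each) and without both replicate 1 libraries of 0 h (0.016), but not without any other single library, where the adjusted p reached 0.29. Without delta 24 h replicate 1 or replicate 2 the delta call was lost (adjusted p = 0.10 and 0.11). The 12 h differences of 0.56 in delta and 0.35 in WT were not called (limma adjusted p = 0.13 and 0.42); the one in delta passed without delta 0 h replicate 2 (adjusted p = 0.015).

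Fgf5, at chr5:98254184-98277033 on the plus strand, was near 0 at 0 and 12 h and gave a clear signal at 24 h. In delta cells the libraries had 0.178 and 0.0228 FPKM at 0 h, 0.642 and 0.232 FPKM at 12 h and 24.6 and 18.7 FPKM at 24 h. In WT cells they had 0.158 and 0 FPKM at 0 h, 0.345 and 0.160 FPKM at 12 h and 11.5 and 8.11 FPKM at 24 h. The 24 h libraries stood far above all others, and the 12 h libraries lay slightly above the 0 h ones. The differences at 12 h against 0 h, 0.37 log2 units in delta and 0.22 in WT, were not called (limma adjusted p = 0.38 and 0.67). The reads behind these levels were 948 and 605 in delta and 367 and 230 in WT at 24 h, but only 5 in the pair of delta libraries and 4 in the pair of WT libraries at 0 h, so that a ratio of means is only loosely fixed. On the log2 scale Fgf5 rose by 24 h by 4.36 in delta (SE 0.24, limma adjusted p = 5.1e-05) and 3.31 in WT (SE 0.24, adjusted p = 1.6e-04). These are differences in log2(FPKM + 1), which understate changes from near 0; a voom fit on recovered reads, described with Fgf8, gave 8.21 in delta (SE 0.93, adjusted p = 4.4e-04) and 7.62 in WT (SE 1.03, adjusted p = 0.0017). Most of this came after 12 h. Against 12 h the rise was 3.98 in delta (limma adjusted p = 3.3e-04) and 3.09 in WT (adjusted p = 0.0030). The WT step after 12 h missed the threshold without WT 12 h replicate 2 (adjusted p = 0.078), without WT 24 h replicate 1 (0.060) and with a pseudocount of 0.1 (0.052).

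Fgf15, the mouse counterpart of human FGF19, encodes a hormone-like FGF best known from the gut and the embryonic brain. It lies at chr7:144896532-144900953 on the plus strand and followed nearly the same course as Fgf5. Delta libraries had 0.0365 and 0.149 FPKM at 0 h, 0.944 and 0.498 FPKM at 12 h and 14.7 and 12.3 FPKM at 24 h. WT libraries had 0.194 and 0.0502 FPKM at 0 h, 0.996 and 0.622 FPKM at 12 h and 11.3 and 7.24 FPKM at 24 h. The 3 times did not overlap in either genotype. Fgf15 rose by 24 h by 3.73 log2 units in delta (SE 0.25, limma adjusted p = 5.1e-05) and 3.17 in WT (SE 0.25, adjusted p = 1.6e-04). In the same voom fit these differences were 7.10 (SE 0.71, adjusted p = 2.7e-04) and 6.35 (SE 0.70, adjusted p = 6.1e-04). The step after 12 h was 3.09 in delta (limma adjusted p = 0.0017) and 2.48 in WT (adjusted p = 0.0093); the WT step missed the threshold without WT 12 h replicate 1, WT 12 h replicate 2 or WT 24 h replicate 1 (adjusted p = 0.060, 0.11 and 0.093) and with a pseudocount of 0.1 (0.052). The step before 12 h, 0.65 in delta and 0.68 in WT, was not called (limma adjusted p = 0.16 and 0.19).

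Fgf8, a ligand of the primitive streak and of later organizers that lies at chr19:45736491-45742941 on the minus strand, stayed at the edge of detection. Delta libraries had 0.330 and 0.127 FPKM at 0 h, 0.178 and 0.107 FPKM at 12 h and 1.01 and 0.688 FPKM at 24 h. WT libraries had 0 and 0.114 FPKM at 0 h, 0.170 and 0.371 FPKM at 12 h and 0.925 and 0.327 FPKM at 24 h. The 24 h values were the highest in delta; in WT the lower 24 h library lay below the higher 12 h one. At 24 h these were 21 and 12 reads in delta and 16 and 5 in WT. In a voom fit on recovered reads that kept genes with at least 10 reads in all libraries together, chosen after the data were seen, the 24 h against 0 h difference was 2.00 log2 units in delta (adjusted p = 0.11) and 3.01 in WT (adjusted p = 0.076).

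**Figure D1:**
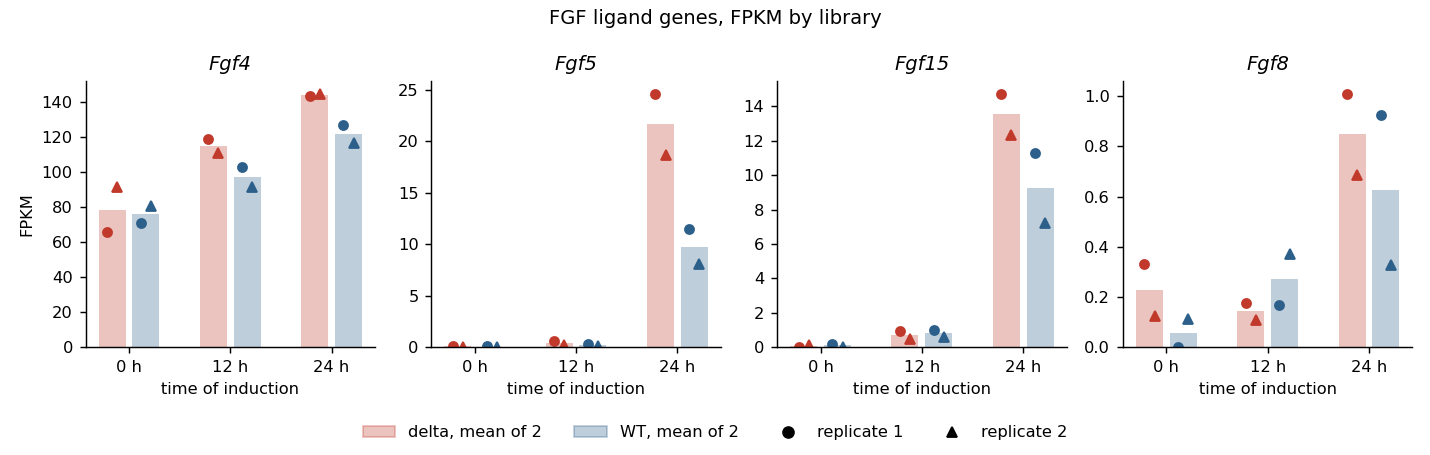
FPKM of the 4 ligand genes at 0, 12 and 24 h of induction; bars are means of 2 libraries, circles replicate 1 and triangles replicate 2, delta (red) left of WT (blue), each panel with its own scale from 0. Fgf4 is high throughout and highest at 24 h, whereas Fgf5 and Fgf15 are under 1 FPKM until 12 h and reach 18.7 to 24.6 and 12.3 to 14.7 FPKM in delta and 8.11 to 11.5 and 7.24 to 11.3 FPKM in WT at 24 h.

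Fgf4 and Fgf15 sit in 1 cluster of chromosome 7 with Fgf3, an FGF of the inner ear and tail bud, and its members moved in different directions. Fgf3, as placed in GENCODE M21, ends 16.95 kb before the RefSeq start of Fgf4. The M21 gene model of Fgf4 starts nearer to Fgf3, at 144847367. By the RefSeq positions Fgf15 starts 31.29 kb after Fgf4 ends. Fgf3 had 3.64 and 3.62 FPKM in delta cells at 0 h, 0.414 and 0.749 FPKM at 12 h and 1.09 and 1.03 FPKM at 24 h; in WT cells it had 3.395 and 3.33 FPKM at 0 h, 0.321 and 0.431 FPKM at 12 h and 1.34 and 0.645 FPKM at 24 h. Every induced library was below every 0 h library. Fgf3 fell at 12 h by 1.56 log2 units in delta (limma adjusted p = 0.0039) and by 1.67 in WT (adjusted p = 0.0035), and at 24 h by 1.17 in delta (adjusted p = 0.0062) and by 1.15 in WT (adjusted p = 0.0088). Ccnd1, the gene of cyclin D1, and LTO1, which lie beyond Fgf15, were not called at either time in either genotype.

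Gm26793, a predicted gene on the opposite strand, shares 761 exon bases with Fgf15, or 24.9% of the exon bases of Fgf15. It had 5.40 and 4.64 FPKM in delta cells and 4.60 and 2.29 FPKM in WT cells at 24 h, and at most 0.0816 FPKM in any 0 h library. It was called higher at 24 h in both genotypes, by 2.53 log2 units in delta (limma adjusted p = 4.6e-04) and 2.05 in WT (adjusted p = 0.0017). Gm26793 passed the filter only through its 24 h libraries, so that it had to differ between times to be tested. The sources used here do not state whether counting used the strand, so reads in the shared bases cannot be assigned to Fgf15 or Gm26793.

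**Figure D2:**
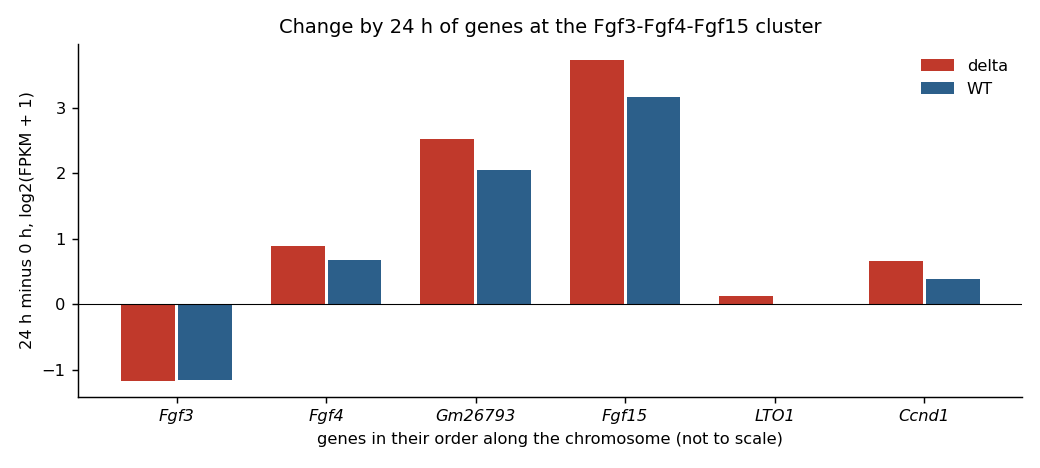
Difference in log2(FPKM + 1) between 24 h and 0 h for genes of the Fgf3, Fgf4 and Fgf15 cluster, in their order along the chromosome and not to scale; delta bars (red) stand left of WT bars (blue). Fgf3 lies below 0 at -1.17 and -1.15, Fgf4 at 0.88 and 0.67 and Fgf15 at 3.73 and 3.17, while LTO1 is near 0.

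Among the receptors, Fgfr1, the main FGF receptor of the mouse epiblast, held 87.5% to 97.6% of the summed receptor FPKM in every library. It lies at chr8:25518759-25575718 on the plus strand. Its levels in delta cells were 5.96 and 12.5 FPKM at 0 h, 14.01 and 17.3 FPKM at 12 h and 11.2 and 14.7 FPKM at 24 h. In WT cells they were 6.84 and 16.7 FPKM at 0 h, 15.9 and 15.5 FPKM at 12 h and 12.8 and 15.4 FPKM at 24 h. The low values were the replicate 1 libraries of 0 h, the same that were rich in ribosomal protein reads; the part of that difference was not tested. Replicates thus differed at 0 h by more than the times did. Fgfr1 was not called at 24 h against 0 h (0.51 in delta, SE 0.40, limma adjusted p = 0.42; 0.35 in WT, SE 0.40, adjusted p = 0.65). Without both of those libraries the 24 h difference was 0.04 in delta and -0.23 in WT. Nor was it called at 12 h against 0 h (0.77 in delta, limma adjusted p = 0.28; 0.50 in WT, adjusted p = 0.56). Over 23 settings the 12 h difference was 0.30 to 1.25 in delta and -0.08 to 1.09 in WT. Of these settings 2 called Fgfr1 at 12 h in delta and 1 in WT, and 1 called it at 24 h in delta.

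Fgfr4, which binds FGF15 and FGF19 most strongly with the co-receptor KLB and lies at chr13:55152818-55168759 on the plus strand, was low and highest at 12 h. Delta libraries had 0.472 and 0.723 FPKM at 0 h, 1.29 and 2.07 FPKM at 12 h and 0.733 and 1.40 FPKM at 24 h. WT libraries had 0.390 and 0.282 FPKM at 0 h, 2.09 and 0.764 FPKM at 12 h and 1.26 and 0.598 FPKM at 24 h. Induced libraries were above the 0 h libraries of their genotype in every case, but the 12 h and 24 h values overlapped. The differences at 12 h of 0.74 log2 units in delta and 0.81 in WT (SE 0.32 each) were not called (limma adjusted p = 0.20 and 0.23), nor were those at 24 h of 0.36 and 0.51 (adjusted p = 0.48 and 0.38).

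Fgfr2, a receptor best known in the early mouse embryo from primitive endoderm and trophoblast (chr7:130162451-130266808, minus strand), was lowest at 0 h and highest at 24 h. Delta libraries had 0.0216 and 0.0772 FPKM at 0 h, 0.179 and 0.148 FPKM at 12 h and 0.365 and 0.674 FPKM at 24 h. WT libraries had 0.0573 and 0.126 FPKM at 0 h, 0.161 and 0.165 FPKM at 12 h and 0.302 and 0.521 FPKM at 24 h. In each genotype the 3 times did not overlap. Both libraries together held 148 reads in delta and 101 in WT at 24 h, against 16 in delta and 23 in WT at 0 h. In the voom fit with at least 10 reads, Fgfr2 rose by 24 h by 3.31 log2 units in delta (SE 0.66, adjusted p = 0.0086); the WT difference of 2.11 (SE 0.61) did not pass (adjusted p = 0.061). In the limma fit without a filter the same differences were 0.53 (adjusted p = 0.025) in delta and 0.37 (adjusted p = 0.11) in WT.

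Beside the Fgfr2 and Fgfr4 levels, the summed FPKM of 12 primitive endoderm markers was 5.75 to 11.9 in delta and 7.96 to 10.9 in WT at 24 h, against 1.24 to 2.93 in delta and 1.43 to 1.79 in WT at 0 h. None of the 12 was at 0 in all libraries, and Gata6 and Dab2, which define that lineage, reached at most 0.36 and 0.23 FPKM. Of the 2 that passed the filter, 1 was called higher at 12 h and at 24 h in both genotypes: Lrp2, an endocytic receptor, with 4.60 and 10.2 FPKM in delta and 6.13 and 8.86 FPKM in WT at 24 h, against at most 0.225 FPKM in any 0 h library. Lrp2 passed the filter only through induced libraries, so that it had to differ from 0 h to be tested. Of all genes tested, 7.00% in delta and 4.03% in WT were called at 12 h, and 15.4% and 10.2% at 24 h. The 10 trophoblast markers, of which 1 was at 0 in all libraries, summed to 33.8 to 35.3 in delta and 29.8 to 43.8 in WT at 24 h, against 27.2 to 43.2 in delta and 35.3 to 52.8 in WT at 0 h. The part of such cells in the receptor levels was not tested. The GENCODE M21 gene model of Fgfr2, whose length fitted the deposited values, spans 2.961 Mb and ends at 133123350, far beyond the RefSeq position given above. It shares 314 exon bases on the same strand with Ctbp2, which reached 62.9 FPKM. The part of Ctbp2 reads in the Fgfr2 levels was not tested.

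Fgfr3, a receptor of cartilage and the nervous system (chr5:33721724-33737068, plus strand), had 0 to 3 reads and at most 0.0420 FPKM in any library. At 24 h both libraries together held 4 reads in delta and 3 in WT, against 1 in delta and 0 in WT at 0 h, so that no difference could be detected at this depth. It shares 998 exon bases with G630022F23Rik on the opposite strand.

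**Figure D3:**
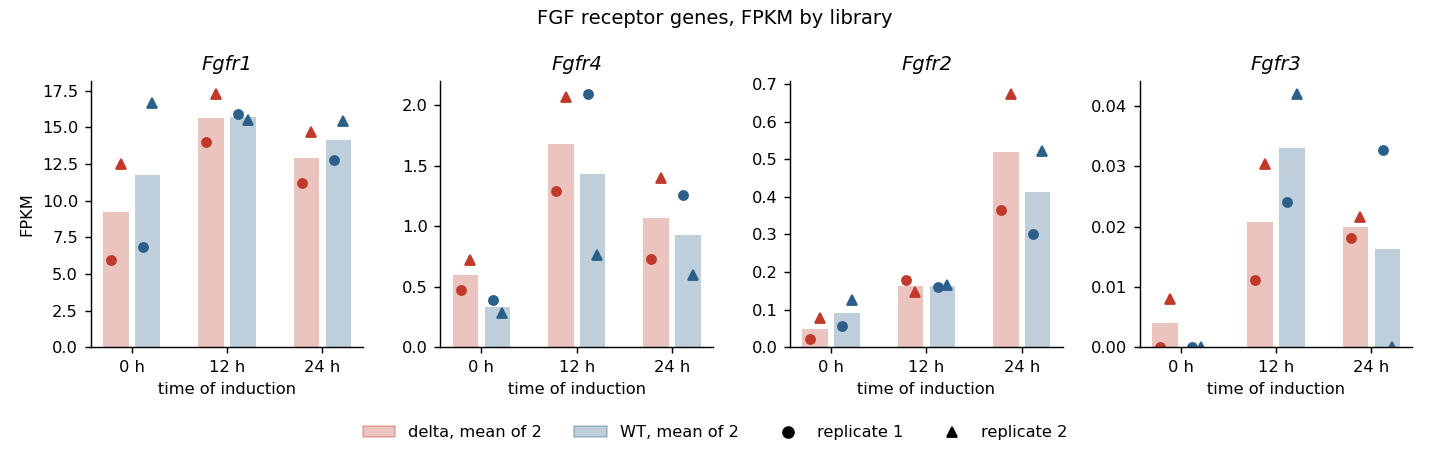
FPKM of the 4 receptor genes at 0, 12 and 24 h of induction; bars are means of 2 libraries, circles replicate 1 and triangles replicate 2, delta (red) left of WT (blue), each panel with its own scale from 0. Fgfr1 is highest by level, with replicate 1 of 0 h low in both genotypes (5.96 and 6.84 FPKM), Fgfr4 is highest at 12 h, Fgfr2 is highest at 24 h and Fgfr3 stays at or under 0.0420 FPKM.

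As a share of the summed receptor FPKM, Fgfr1 made up 90.2% ± 2.48 at 24 h and 94.4% ± 2.24 at 0 h (SD, n = 4 each, both genotypes). The difference of -4.28 percentage points did not pass a 2-sided exact permutation test (p = 0.057; 70 arrangements allow no p below 0.029). In each of the 4 pairs of the same genotype and replicate number the share was lower at 24 h than at 0 h. Over all genes tested, deviations of replicate 1 libraries from their group means correlated between 0 and 24 h at 0.45 in delta and 0.39 in WT. The permutation test did not use these pairs. Over recovered reads the difference was -4.09 percentage points (exact permutation p = 0.029), and without WT 24 h replicate 2 it was -5.30 (exact permutation p = 0.029). Between genotypes the share was 90.6% ± 2.37 in delta and 92.5% ± 3.71 in WT (SD, n = 6 each), a difference of -1.92 percentage points that did not pass a 2-sided exact permutation test within times (p = 0.20). In order of mean level at 24 h the members ran Fgf4, Fgf5, Fgf15, Fgfr1, Fgfr4, Fgf8, Fgfr2 and Fgfr3 in delta and Fgf4, Fgfr1, Fgf5, Fgf15, Fgfr4, Fgf8, Fgfr2 and Fgfr3 in WT. At 0 h Fgf4 and Fgfr1 led in both. The libraries of Fgf15 and Fgfr1 in delta at 24 h overlapped, as did those of Fgf5 and Fgf15 in WT, of Fgf8 and Fgfr4 in both genotypes, and of Fgfr2 and Fgf8 in WT, so these neighbours did not differ beyond their spread.

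Between genotypes no member was called at 0 h (background 0.00715%), 12 h (0.0143%), 24 h (0.00715%) or averaged over the times (0.0143%). Among the 5 members that passed the filter the widest difference in log2(FPKM + 1) was that of Fgf5 at 24 h: 24.6 and 18.7 FPKM in delta, against 11.5 and 8.11 FPKM in WT, means of 21.7 ± 4.18 and 9.78 ± 2.37 (SD, n = 2 each) and a ratio of 2.21. Both delta libraries were above both WT libraries, by 2.15 times in replicate 1 and 2.31 times in replicate 2. The log2 difference of 1.08 (SE 0.24, 95% interval 0.53 to 1.63) had an unadjusted p of 0.0016 and a limma adjusted p of 1, which was 0.57 with the replicate block, 0.45 with replicate blocks at each time, and 0.45 to 1 over the alternatives. The change of Fgf5 by 24 h was 1.05 log2 units larger in delta than in WT (SE 0.35, unadjusted p = 0.014, limma adjusted p = 1), but 0.59 in the voom fit with at least 10 reads (SE 1.39, unadjusted p = 0.68). Formative markers summed higher and naive markers lower in delta at 24 h, as given above. Between genotypes at 24 h, however, limma called 0 of the 11 formative and 0 of the 12 naive markers. Their part in the Fgf5 difference was not tested.

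Fgf15 at 24 h was 0.53 log2 units higher in delta than in WT (SE 0.25, 95% interval -0.03 to 1.08, limma adjusted p = 1), with both delta libraries above both WT libraries. Fgf4 differed by 0.24 at 24 h (SE 0.20, 95% interval -0.20 to 0.69, limma adjusted p = 1), again with no overlap. For Fgfr1 and Fgfr4 the differences at 24 h were -0.12 (95% interval -1.03 to 0.78) and 0.10 (-0.61 to 0.82), with overlapping libraries. No member's change by 12 or 24 h was called different between genotypes, and over all genes limma called 0 at either time (33 higher and 53 lower for 12 h and 61 higher and 77 lower for 24 h at an unadjusted p under 0.05); voom on recovered reads also called 0.

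**Figure D4:**
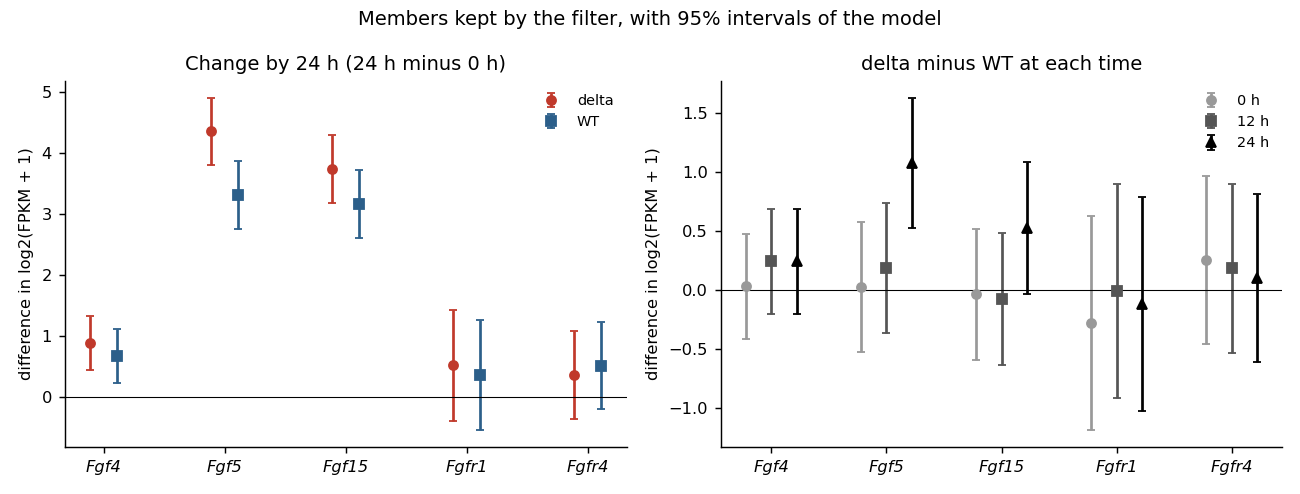
Differences in log2(FPKM + 1) of the 5 members that passed the filter, with 95% intervals of the limma fit. Left, 24 h minus 0 h in delta (red circles) and WT (blue squares), where Fgf5 and Fgf15 lie between 3.17 and 4.36; right, delta minus WT at 0, 12 and 24 h, where of the 15 intervals only that of Fgf5 at 24 h (0.53 to 1.63) leaves out 0.

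Of 20 further ligand and ligand-binding genes, 5 passed the filter, and at 24 h against 0 h none rose and 2 fell in each genotype, with a median of -0.38 in delta and 0.15 in WT, against -0.05 and -0.03 over all genes tested. Of all genes tested, 15.4% were called in delta and 10.2% in WT. The 2 were Fgf3, given above, and Fgf10, a ligand of FGFR2 in budding lung and limb. Fgf10 had at most 0.13 FPKM in any induced library, against 2.01 and 1.23 FPKM in delta and 1.502 and 2.002 FPKM in WT at 0 h. It passed the filter only through its 0 h libraries, so that it had to differ to be tested. It fell by 24 h by 1.35 log2 units in delta (limma adjusted p = 0.0024) and by 1.43 in WT (adjusted p = 0.0024). Fgf2, the gene of the factor that the medium supplies, stayed between 0.06 and 0.28 FPKM. Fgfbp1, a carrier that releases FGFs from the matrix, had 13.7 and 19.3 FPKM in delta and 13.4 and 15.6 FPKM in WT at 12 h, but was not called there (limma adjusted p = 0.096 in delta and 0.15 in WT).

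Of 30 genes of co-receptors and of heparan sulphate, 21 were tested. At 24 h 2 rose in each genotype, and 2 fell in delta and 1 in WT (medians 0.07 in delta and 0.02 in WT). The background over all genes tested was 15.4% called in delta and 10.2% in WT, near these counts. Ext1, which extends the heparan sulphate chain, rose by 1.42 in delta (limma adjusted p = 0.0024) and 1.19 in WT (adjusted p = 0.0074). Gpc4, a cell-surface carrier of these chains, rose by 0.86 (limma adjusted p = 0.014) and 0.80 (adjusted p = 0.026). Flrt3, a membrane protein that binds FGF receptors, fell by 1.27 (limma adjusted p = 0.0016) and 1.45 (adjusted p = 0.0011). Flrt3 passed the filter only through its 0 h libraries, so that it had to differ to be tested. Gpc3, another glypican, fell by 1.64 in delta (limma adjusted p = 0.020), while its WT difference was -1.29 (adjusted p = 0.065).

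Of 30 genes that relay the signal, 28 were tested, and 2 rose and 1 fell at 24 h in each genotype (medians 0.16 in delta and 0.05 in WT). Over all genes tested 15.4% were called in delta and 10.2% in WT, so these counts were near or below the background. The rises were Gab1, an adaptor of receptor kinases, by 1.16 in delta (limma adjusted p = 0.011) and 0.86 in WT (adjusted p = 0.047), and Braf, a RAF kinase, by 1.18 (limma adjusted p = 0.030) and 1.29 (adjusted p = 0.028). The fall was Stat3, which the medium's LIF engages at 0 h, by 1.24 in delta (limma adjusted p = 0.026) and 1.52 in WT (adjusted p = 0.014). Frs2 and Grb2, the adaptors next to the receptor, and Map2k1, a kinase further along the route, were not called.

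Of feedback genes and targets of the pathway all 20 were tested. At 12 h 7 rose in delta and 6 in WT, where 7.00% and 4.03% of all genes tested were called. At 24 h 7 rose and 1 fell in each genotype (medians 0.76 in delta and 0.46 in WT), where 15.4% and 10.2% were called. Dusp6, a phosphatase of ERK, had 47.9 and 42.7 FPKM in delta and 48.5 and 38.8 FPKM in WT at 24 h, against 7.74 and 3.44 FPKM in delta and 7.66 and 6.84 FPKM in WT at 0 h. It rose by 2.89 in delta (limma adjusted p = 3.3e-04) and 2.43 in WT (adjusted p = 0.0010). Dusp4, its relative, rose by 4.62 (limma adjusted p = 5.1e-05) and 4.11 (adjusted p = 1.6e-04), and Spry4, an inhibitor of the RAS step, by 2.56 (adjusted p = 3.3e-04) and 1.94 (adjusted p = 0.0017). Etv4, an ETS factor induced by FGF, rose by 3.92 in delta (limma adjusted p = 4.7e-04) and 2.33 in WT (adjusted p = 0.0086); Etv1 and Myc also rose in both genotypes. Dusp14, another phosphatase of the dual-specificity class, fell by 1.77 in delta (limma adjusted p = 0.0074) and by 1.78 in WT (adjusted p = 0.0097). No gene of these 4 lists was called between genotypes.

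Of 8 transcription factors known to act on Fgf4 or Fgf5 in stem cells, or targeted here, 3 rose and 2 fell in delta and 4 rose and 1 fell in WT at 24 h (medians 0.28 in delta and 0.79 in WT). The share of all genes tested that was called was 15.4% in delta and 10.2% in WT (medians -0.05 and -0.03). Pou5f1 and Sox2, whose proteins bind the Fgf4 element shown above, were not called; Pou5f1 had 681 and 574 FPKM in delta and 677 and 587 FPKM in WT at 24 h. Pou3f1, a POU factor of the formative epiblast, rose by 6.13 in delta (limma adjusted p = 5.1e-05) and 5.55 in WT (adjusted p = 1.3e-04), and Otx2, a homeobox factor of the same stage, by 4.22 (adjusted p = 0.0050) and 3.45 (adjusted p = 0.017). Foxd3, a forkhead factor, rose by 2.55 (limma adjusted p = 4.2e-04) and 1.65 (adjusted p = 0.0051). Nanog, a naive factor, fell by 3.30 in delta (limma adjusted p = 6.4e-05) and by 2.21 in WT (adjusted p = 6.4e-04). Tcf15 rose in WT by 3.49 (limma adjusted p = 0.0020); its difference in delta was 0.83 (adjusted p = 0.27).

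Of all genes with a mean of at least 5 FPKM (7079 candidates), those whose log2 levels followed Fgf5 most closely over the 12 libraries were Enpp2, Gclm and Zbtb8a, with Pearson r of 0.98 each. For Fgf15 they were Enpp2 (0.99), Gadd45g (0.99) and Gclm (0.98). These correlations describe 12 libraries that share their times, carry no test, and follow mainly the step at 24 h. The other 6 members ranged by under 1 log2 unit over the 6 group means and were not ranked.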

How the data were processed

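Poly(A) RNA of 12 libraries (6 groups of 2) was sequenced. FPKM values per gene were deposited by the authors; the submitters' processing notes list cutadapt, STAR 2.5.2b, featureCounts 1.5.1, edgeR 3.16.5 and build mm10, without roles. Strandedness and the annotation version are not given in the sources used here. Gene lengths from GENCODE M21, or read from the steps of the values, gave whole reads within 0.01 for 99.35% of 28657 genes above 0; recovered reads served for depth and as an alternative. The FPKM scale followed an effective library size of 75.0% to 107% of those reads.

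The analysis used R 4.3.3 with limma 3.58.1, pandas 2.3.3 and numpy 2.4.6 under Python 3.11.15, and matplotlib 3.10.9. The 13981 genes that reached 1 FPKM in 2 or more libraries entered 1 limma fit of log2(FPKM + 1), with a mean per group, a variance trend and 12 contrasts. The pseudocount understates changes of low genes. P-values were 2-sided and Benjamini-Hochberg adjusted over all genes; SE and 95% intervals are those of the model, with 6 residual and 3.11 prior degrees of freedom. Alternatives changed the pseudocount, filter, scaling, variance model, replicate block, libraries and the use of recovered reads (voom).

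All 8 members are named in every contrast. From each further list up to 4 genes with the smallest p are named, plus others chosen after their values were seen. The members and lists were chosen with earlier results of these data known. Deviations of replicate 1 libraries from their group means correlated between delta and WT at 0.70, 0.28 and 0.37 at 0, 12 and 24 h. Across times they correlated at 0.30 to 0.45 within delta and 0.26 to 0.46 within WT. Between unlike genotypes and times the range was -0.07 to 0.46. Replicate numbers thus shared some spread across times too, which the main fit leaves out and the replicate block takes up. Promoters are RefSeq sequences (GRCm38.p6); 5 of 8 members matched.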

Additional observations from a re-analysis of the deposited data

Results flagged for a closer look

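Fgf8 moved in opposite directions between 0 and 12 h in the 2 genotypes. The log2(FPKM + 1) change was -0.18 and -0.02 in the replicate 1 and 2 pairs of delta, and 0.23 and 0.30 in those of WT, a difference between the mean changes of -0.363. Fgf8 was under the filter, with 2 to 5 reads in each of the 12 h libraries, and this difference was not tested in the main fit; in the voom fit with at least 10 reads it had an adjusted p of 1.

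Fgf15 was lower in delta than in WT in both pairs at 12 h, by log2 differences of -0.04 and -0.11, and higher in both pairs at 24 h, by 0.36 and 0.70. The 12 h mean minus the 24 h mean was -0.602, and this difference was not tested.

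Fgfr2 was lower in delta than in WT in both pairs at 0 h, at -0.05 and -0.06, and higher in both at 24 h, at 0.07 and 0.14. The 0 h mean minus the 24 h mean was -0.16. Fgfr2 was under the filter and this difference was not tested in the main fit; in the voom fit with at least 10 reads the change by 24 h differed by 1.20 log2 units (adjusted p = 1).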

How the results depend on the processing

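Of 1356 values of single members under the 22 alternatives, 1280 kept direction and side of the threshold, 9 lost a call, 18 gained one, 0 called values changed sign and 49 uncalled values changed sign. For Fgf8, Fgfr2 and Fgfr3, not tested in the main fit, the fit without a filter gave the reference value. That fit was also counted as an alternative, where these values could not change direction. The call of Fgfr2 there, in delta at 24 h against 0 h, was counted as gained. Fgf5 and Fgf15 were called at 24 h against 0 h in both genotypes under each alternative that kept them. The filter of 1 FPKM in at least 6 libraries dropped them and Fgfr4, which left 1 member called in delta and 0 in WT at 24 h against 0 h, and 0 in each genotype against 12 h. With a pseudocount of 0.1, 1 member was called in delta at 12 h against 0 h, where 547 of all genes were called higher and 462 lower, and 0 in WT at 24 h against 12 h, where limma called 0 of all genes (before adjustment, p was under 0.05 for 523 higher and 531 lower genes; voom on recovered reads called 25 higher and 14 lower). Leaving out single libraries gave 2 to 3 members called in delta and 2 to 3 in WT at 24 h against 0 h, 0 to 2 in delta at 12 h against 0 h, and 2 in delta and 0 to 2 in WT at 24 h against 12 h. The Fgfr1 share, 24 h against 0 h, was -5.30 to -3.22 percentage points over single libraries left out and -4.09 over reads.

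With the replicate block, 3 members were called in delta and 3 in WT at 24 h against 0 h. With the replicate block within each time, 3 members were called in delta and 2 in WT at 12 h against 0 h. Over all genes, calls at 24 h against 0 h numbered 2151 in delta and 1427 in WT, against 2969 and 2091 with the block, 5768 and 4167 with the block within each time, and 775 to 5085 and 596 to 2444 without single libraries. Voom on recovered reads called 1147 genes higher and 1074 lower in delta, and 814 higher and 632 lower in WT, at 24 h against 0 h. Calls at 12 h against 0 h numbered 979 in delta and 563 in WT, against 1605 and 989 with the block and 4750 and 2918 with the block within each time. Between times, the block within each time takes out the spread between the replicates of a time, against which such a difference has to be judged, so its calls between times support none.

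With 2 libraries a group, 1 clone and few reads for Fgf8, Fgfr2 and Fgfr3, small differences of these genes could not be detected.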
